A study of Homo sapiens with 6 samples.

Results

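The CEACAM genes encode carcinoembryonic antigen-related cell adhesion molecules, cell surface or secreted proteins of the immunoglobulin superfamily. The 10 genes described here (CEACAM1, CEACAM3, CEACAM4, CEACAM5, CEACAM6, CEACAM7, CEACAM8, CEACAM16, CEACAM19 and CEACAM21) were chosen by name, and each was found by its Ensembl identifier among the 63677 genes counted. The RNA came from SW480, a human colorectal adenocarcinoma cell line, transduced with a lentiviral vector that expresses either HA-tagged POU5F1B, a retrogene copy of the pluripotency gene POU5F1, or GFP as a control. Both groups had 3 libraries, and cells of both groups received 1 µg/mL doxycycline for 72 h to induce the vector. The comparison asks which CEACAM transcripts differ in cells that overexpress POU5F1B, and nothing in the labels says that the libraries came from separate transductions or cultures, so p-values measure only the spread between these libraries.

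CEACAM proteins bind each other between neighbouring cells through their first immunoglobulin-like domain. CEACAM5 (the carcinoembryonic antigen, CEA, a serum marker of colorectal cancer), CEACAM6, CEACAM7 and CEACAM8 are held in the membrane by a GPI lipid anchor, whereas CEACAM1, CEACAM3, CEACAM4, CEACAM19 and CEACAM21 span the membrane. CEACAM1 carries inhibitory tyrosine motifs that recruit phosphatases. In the normal colon, CEACAM1, CEACAM5, CEACAM6 and CEACAM7 are made by the epithelium, CEACAM3, CEACAM4 and CEACAM8 belong to granulocytes, and CEACAM16 is secreted in the inner ear.

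The genes lie in a stretch of chromosome 19 and differ in how alike they are. The longest coding run shared without a mismatch was 78 bases, for CEACAM3 with CEACAM5 and for CEACAM6 with CEACAM8, whereas CEACAM16 and CEACAM19 shared at most 14 bases with any other member. RefSeq promoters (GRCh38.p14) were matched for 8 of the 10 genes, in 9 windows since CEACAM21 has more than one start, and not for CEACAM16 and CEACAM19. The 250 bases before the start of CEACAM1, the family member with the most reads in these cells, and of CEACAM5 and CEACAM6, the classical tumour antigens of the family, are shown first. Capitals mark matches to an E-box (CACGTG, bound by USF factors), a GC box (GGGCGG, bound by SP1) or an interferon response core (GAAA, any 2 bases, then GAAA, bound by IRF factors), searched on both strands.
CEACAM1 (chr19:42528482-42528731, minus strand): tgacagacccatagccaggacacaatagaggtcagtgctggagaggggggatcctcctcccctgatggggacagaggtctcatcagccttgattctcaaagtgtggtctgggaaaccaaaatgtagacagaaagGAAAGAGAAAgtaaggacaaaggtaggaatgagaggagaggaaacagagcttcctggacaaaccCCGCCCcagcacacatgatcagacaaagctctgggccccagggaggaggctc
CEACAM5 (chr19:41708376-41708625, plus strand): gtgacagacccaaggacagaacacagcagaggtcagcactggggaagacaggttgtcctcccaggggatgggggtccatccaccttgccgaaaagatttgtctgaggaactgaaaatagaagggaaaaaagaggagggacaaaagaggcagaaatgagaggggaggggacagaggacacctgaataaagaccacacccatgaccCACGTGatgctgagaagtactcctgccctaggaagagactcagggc
CEACAM6 (chr19:41755280-41755529, plus strand): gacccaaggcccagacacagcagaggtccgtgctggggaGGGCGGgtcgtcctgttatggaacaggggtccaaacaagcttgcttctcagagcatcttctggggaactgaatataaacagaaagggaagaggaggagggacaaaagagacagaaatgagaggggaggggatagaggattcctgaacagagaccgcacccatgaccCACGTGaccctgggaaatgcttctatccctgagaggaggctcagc

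In a global alignment to the CEACAM5 promoter, the identity over aligned bases ran from 84.4% for CEACAM7 and 78.5% for CEACAM6, through 72.0% for CEACAM1 and 70.4% for CEACAM8, to 57.7% for one of the CEACAM21 windows, the other being at 77.5%. The E-box of CEACAM5 lay 46 to 41 bases before the start and that of CEACAM6 45 to 40 bases before it. The stretches aligned to this element show where the family members part, and capitals here mark the bases aligned to the 6 letters of the CEACAM5 E-box.
CEACAM5: acacccatgaccCACGTGatgctgagaagt
CEACAM6: gcacccatgaccCACGTGaccctgggaaat
CEACAM7: ccacccctggacCATGTGatcttggaaagt
CEACAM1: gccccagcaCACATGatcagacaaagc

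An E-box was found in 2 of the 9 CEACAM windows, against 6.35% of 35116 windows of the same length over all genes. A GC box was found in 5 of 9 (42.6% of all windows) and the interferon core in 1 of 9, that of CEACAM1 (3.02% of all windows). The octamer ATGCAAAT, the element bound by POU factors such as OCT4, was found in 0 of 9 and in 1.63% of all windows. These matches are a description of letters in short windows and say nothing of binding in these cells.

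The 6 libraries held between 10767947 and 12787637 counts. The overexpressed POU5F1B had 6, 5 and 1 counts in GFP replicates 1, 2 and 3 and 15027, 11393 and 1458 in POU5F1B replicates 1, 2 and 3, so that the libraries matched their labels and replicate 3 held the least POU5F1B of its group. The replicates were not equally alike. Over genes with at least 10 counts in a pair of libraries, chi-square divided by its degrees of freedom was 4.21 for GFP replicates 1 and 2 and 5.38 for POU5F1B replicates 1 and 2, whereas it was 78.7 and 89.5 for GFP replicate 3 and 17.5 and 20.9 for POU5F1B replicate 3 against the others of their groups. All 9 epithelial markers listed (EPCAM, KRT8, KRT18, KRT19, CDH1, VIL1, CDX2, CLDN4 and CLDN7) were detected in all 6 libraries, with a summed level of 6517 to 9872 CPM with GFP and 8202 to 9200 CPM with POU5F1B. CPM stands for counts scaled to library size, the sizes being adjusted by TMM. Most of the epithelial sum came from KRT8 and KRT18, with means of 3578 and 3532 CPM over the 6 libraries.

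Only 3 of the 10 CEACAM genes, CEACAM1, CEACAM21 and CEACAM19, had enough reads to pass the filter for testing. A further 4 (CEACAM6, CEACAM8, CEACAM5 and CEACAM3) had between 1 and 10 counts summed over all 6 libraries, and 3 (CEACAM4, CEACAM7 and CEACAM16) had 0 counts in every library. CEACAM1 and CEACAM21 were the main family transcripts of these cells. Of the counts of all 10 genes, CEACAM1 took 66.0 ± 1.63% in GFP and 72.9 ± 5.28% in POU5F1B cells, and CEACAM21 took 27.9 ± 5.09% and 19.6 ± 5.01% (mean ± SD, n = 3).

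**Figure D1:**
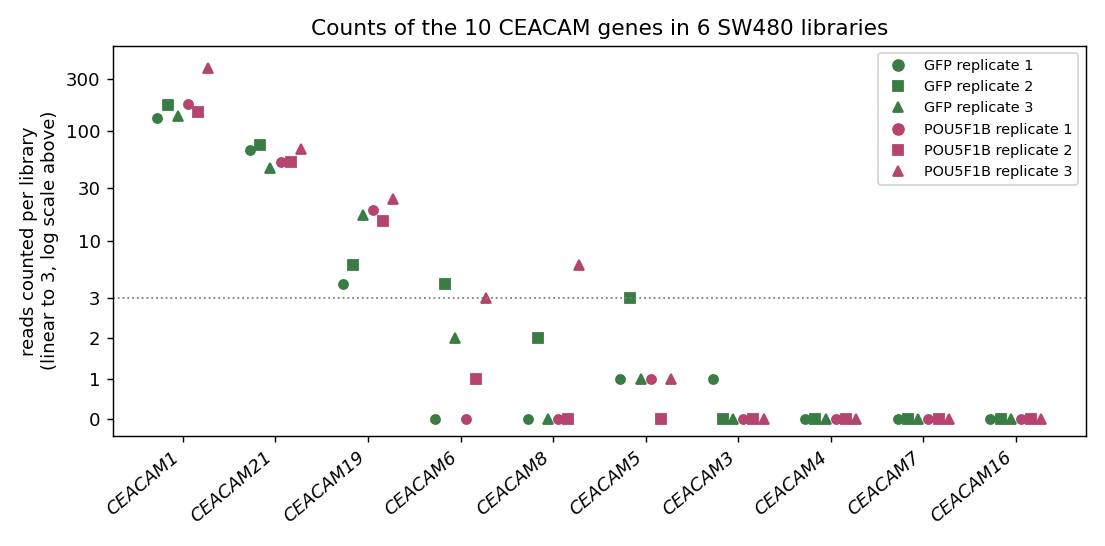
Reads counted per library (vertical axis, linear to 3 and logarithmic above) for each of the 10 CEACAM genes, with GFP libraries in green, POU5F1B libraries in pink and the shape giving the replicate number; the dotted line marks the floor of 3 counts. CEACAM1 had 132 to 381 counts and CEACAM21 had 46 to 74, whereas CEACAM4, CEACAM7 and CEACAM16 sat at 0 in all 6 libraries.

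To set the genes against each other, CPM was divided by the length of the merged exons in kilobases. On this scale the level of CEACAM21 was 2.58 ± 0.479 in GFP and 2.46 ± 0.398 in POU5F1B cells, and that of CEACAM1 2.19 ± 0.180 and 3.59 ± 1.86 CPM per kb (SD, n = 3). Over single libraries CEACAM21 ranged from 2.03 to 2.86 and CEACAM1 from 2.01 to 5.74 CPM per kb, so the levels of these genes were not separated beyond their spread. CEACAM19 came next, at 0.0652 to 0.386 CPM per kb, below every value of CEACAM1 and CEACAM21. CEACAM8 reached at most 0.196 CPM per kb, within the range of CEACAM19, and CEACAM6, CEACAM5 and CEACAM3 reached at most 0.103, 0.0573 and 0.0288 CPM per kb. Exon lengths came from GENCODE 44 lifted to GRCh37, which is not necessarily the release used for counting.

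CEACAM1 (ENSG00000079385; chromosome 19, 43011456 to 43065386, minus strand, GRCh37) had 132, 172 and 138 counts in GFP replicates 1, 2 and 3, and 177, 150 and 381 in POU5F1B replicates 1, 2 and 3. This corresponded to 11.1, 13.1 and 12 CPM with GFP and 13.9, 13.9 and 31.7 CPM with POU5F1B (mean 12.1 ± 0.994 against 19.9 ± 10.3, SD, n = 3). There was no overlap between groups, but 5 of the 6 libraries lay between 11.1 and 13.9 CPM and only POU5F1B replicate 3 stood clear of them, at 2.48 times their mean. The same library held the least POU5F1B of its group. The log2 fold change was 0.60 ± 0.36 (SE), with an adjusted p of 0.550 in limma voom (0.317 to 0.934 over the alternatives). Without POU5F1B replicate 3 the log2 fold change of CEACAM1 was 0.21. Of all tested genes, 10.2% had groups that did not overlap with POU5F1B higher, and CEACAM1 was 1 of the 3 tested CEACAM genes to do so.

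CEACAM21 (ENSG00000007129; chromosome 19, 42055886 to 42093197, plus strand) encodes a little studied membrane protein of the family. GFP replicates 1, 2 and 3 had 67, 74 and 46 counts of it and POU5F1B replicates 1, 2 and 3 had 52, 52 and 68, that is 5.65, 5.64 and 4.0 CPM against 4.09, 4.82 and 5.66 CPM. The groups overlapped over their whole range. The means were 5.10 ± 0.946 CPM with GFP and 4.86 ± 0.787 CPM with POU5F1B (SD, n = 3), and the log2 fold change of -0.070 ± 0.25 (SE) was within the spread (limma voom adjusted p = 0.943; 0.207 to 0.996 over the alternatives).

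CEACAM19 (ENSG00000186567, chromosome 19, 45165545 to 45187631, plus strand) is another membrane protein of which little is known. Among the tested CEACAM genes only CEACAM19 had an unadjusted limma voom p under 0.05, which was reached with POU5F1B higher by 6.07% of all tested genes. It was a low transcript, and with few reads in GFP replicates 1 and 2 it could enter the tested set largely through the POU5F1B libraries. GFP replicates 1, 2 and 3 had 4, 6 and 17 counts, and POU5F1B replicates 1, 2 and 3 had 19, 15 and 24. In CPM the values were 0.337, 0.457 and 1.48 in GFP against 1.49, 1.39 and 2.0 with POU5F1B, so that GFP replicates 1 and 2 lay below the rest and GFP replicate 3 lay among the POU5F1B libraries. The means were 0.758 ± 0.628 CPM with GFP and 1.63 ± 0.325 CPM with POU5F1B (SD, n = 3). The log2 fold change was 1.34 ± 0.53 (SE), with an unadjusted limma voom p of 0.0411 and an adjusted p of 0.394 over all 14286 genes (0.00509 to 0.933 over the alternatives).

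CEACAM19 thus did not pass the threshold, an adjusted p under 0.05 and a fold change above 2, with all 6 libraries. Without GFP replicate 3 its log2 fold change was 1.92 and it passed (limma voom adjusted p = 0.0320), as did 1.39% of all tested genes in the same direction. With replicates 1 and 2 only, the log2 fold change was 1.76 and it passed again (limma voom adjusted p = 0.0147; 3.21% of all genes, POU5F1B higher). With weights for the quality of each library, its log2 fold change was 1.76 and it also passed (adjusted p = 0.00509 in limma voom, 3.14% of all genes, POU5F1B higher). These 3 fits use the same libraries and are not independent of each other. The first 2 leave out GFP replicate 3, the GFP library with the most CEACAM19 reads. Replicates 1 and 2 were also the libraries most alike within each group, so fits on them see a smaller spread. Some epithelial markers had values that differed between the same libraries. EPCAM had 86.8, 89.4 and 519 CPM in GFP replicates 1, 2 and 3 and 252 to 331 CPM with POU5F1B, and the adhesion gene CDH1 (E-cadherin) had 33.7, 30.2 and 72.7 CPM with GFP and 98.3 to 164 CPM with POU5F1B. Of the 9 epithelial markers, 0 passed the threshold and 2 had an unadjusted p under 0.05, CDH1 and the tight junction gene CLDN7, with log2 fold changes of 1.72 and 1.21 and limma voom adjusted p of 0.207 and 0.411, beside 6.07% of all tested genes with POU5F1B higher. The log2 fold changes of the others were 0.92 for EPCAM, 0.51 for VIL1, 0.34 for KRT19, 0.25 for CLDN4, 0.17 for KRT18, 0.096 for KRT8 and -0.32 for CDX2. The part of this in the CEACAM19 values was not tested.

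**Figure D2:**
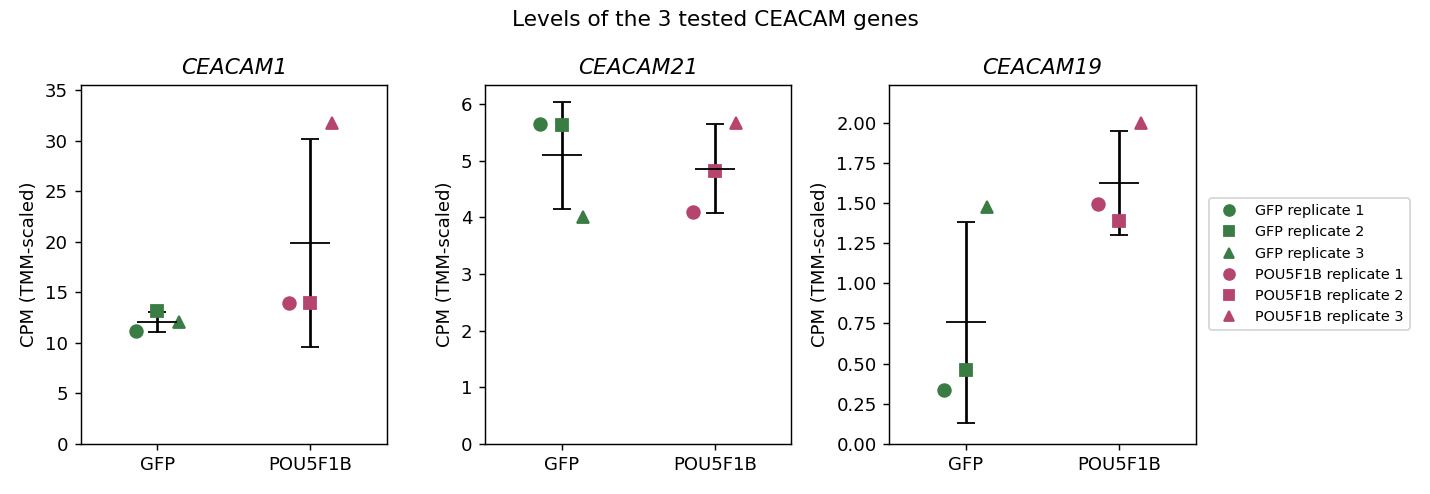
Level of CEACAM1, CEACAM21 and CEACAM19 in CPM on TMM-scaled library sizes (vertical axes, each starting at 0), one point per library, with the mean and SD of each group of 3 in black. CEACAM1 was set apart by POU5F1B replicate 3 at 31.7 CPM, the CEACAM21 groups overlapped, and CEACAM19 was lowest in GFP replicates 1 and 2.

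In the fit over all genes, 0 of the 3 tested CEACAM genes passed the threshold with limma voom, with edgeR or with DESeq2. With limma voom 1 had an unadjusted p under 0.05, CEACAM19, whose unadjusted p was 0.0920 in edgeR and 0.118 in DESeq2. Its log2 fold changes there were 1.108 and 1.125. Over all 14286 genes 0 passed with limma voom or edgeR, or 0.0%, and 232 (1.62%) passed with DESeq2. With limma voom 1698 (11.9%) had an unadjusted p under 0.05. The overexpressed POU5F1B itself did not pass with limma voom, at a log2 fold change of 10.73 ± 2.776 (SE) and an adjusted p of 0.252. A 0 in this test therefore does not show that genes were unchanged. The differences between libraries with the same replicate number, taken as a description, ran as follows on the log2 CPM scale. CEACAM1 differed by 0.32, 0.084 and 1.39 for replicate numbers 1, 2 and 3. CEACAM19 differed by 1.72, 1.32 and 0.40, so that CEACAM1 differed most in number 3 and CEACAM19 least there. As the CEACAM1 groups did not overlap, its differences are positive however the libraries are matched. For CEACAM19 the sign depends on the matching, since GFP replicate 3 (1.48 CPM) lay above POU5F1B replicate 2 (1.39 CPM). CEACAM21 differed by -0.45 and -0.22 for numbers 1 and 2 and by 0.48 for number 3.

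**Figure D3:**
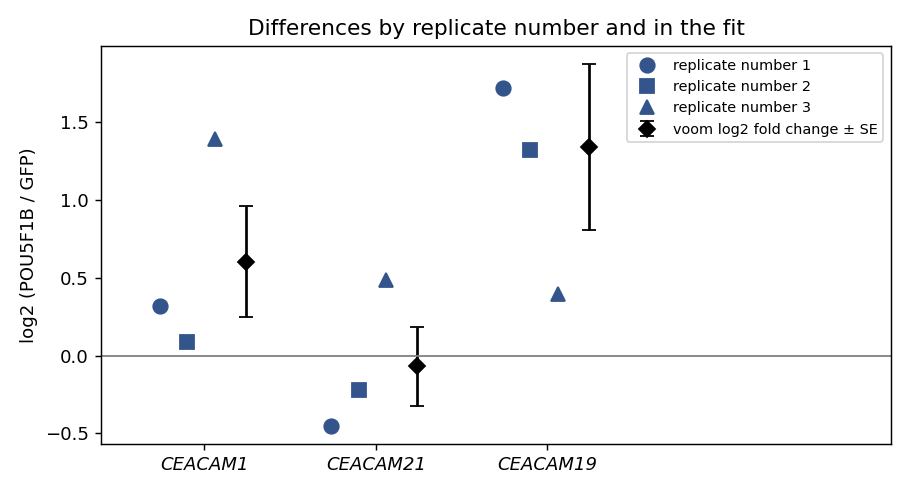
Log2 difference of POU5F1B over GFP (vertical axis) between libraries of the same replicate number (blue) and in the voom fit with its standard error (black) for the 3 tested CEACAM genes. CEACAM1 reached 1.39 in replicate number 3 alone, CEACAM19 was above 1 in numbers 1 and 2, and CEACAM21 lay on both sides of 0.

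The GPI-anchored antigens of colon cancer were at the limit of detection. CEACAM5 (ENSG00000105388; 42212504 to 42234353, plus strand) had 1, 3 and 1 counts in GFP replicates 1, 2 and 3 and 1, 0 and 1 in POU5F1B replicates 1, 2 and 3. CEACAM6 (ENSG00000086548; 42254885 to 42276116, plus strand) had 0, 4 and 2 counts in GFP and 0, 1 and 3 in POU5F1B cells. Neither gene held more than 4 counts in any library, and the groups overlapped in counts. CEACAM7, which marks mature colonocytes, had 0 counts in all 6 libraries. Depending on the library, 3 counts, the upper limit that 0 counts allow, were worth 0.229 to 0.278 CPM, a limit for counting error alone because PCR copies were not marked by molecular identifiers. Differences in CEACAM5, CEACAM6 or CEACAM7 within so few counts were therefore not detectable at this depth. A rise to the 15 to 24 counts that CEACAM19 had in POU5F1B cells would have been visible and was not present.

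The members known from granulocytes and the inner ear were as low. CEACAM8 (ENSG00000124469), a GPI-anchored granulocyte activation antigen, had 0, 2 and 0 counts in GFP and 0, 0 and 6 in POU5F1B replicates 1, 2 and 3. CEACAM3, a phagocytic receptor of granulocytes, had 1 count in GFP replicate 1 and 0 elsewhere, and CEACAM4 and CEACAM16 had 0 throughout. Of 14 granulocyte markers, 5 (ELANE, CSF3R, FCGR3B, S100A8 and S100A12) were at 0 in all libraries, and the summed level of the list was 1.69 to 4.79 CPM with GFP and 3.08 to 6.84 CPM with POU5F1B. Most of these counts came from LTF (1 to 58 counts), which epithelia also make, CD177 (6 to 19) and ITGAM (3 to 11). LTF had 2, 1 and 27 counts in GFP and 58, 35 and 14 in POU5F1B replicates 1, 2 and 3. Its log2 fold change was 2.81 ± 1.09 (SE), with a limma voom unadjusted p of 0.0369 and adjusted p of 0.381. Such an unadjusted p with POU5F1B higher was reached by 6.07% of all tested genes. CD177, the other tested marker of this list, had a log2 fold change of -0.69. Of the 6 inner ear markers, TECTB was at 0 throughout, and the list summed to 0.783 to 1.68 CPM with GFP and 1.21 to 2.20 CPM with POU5F1B.

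Since the files hold uniquely mapped reads, the exons were checked for sequence that occurs more than once in the GRCh37 genome. At a window of 75 bases, 0.443% of the exon windows of CEACAM1, 1.33% of CEACAM5, 0.169% of CEACAM6, 0.950% of CEACAM8, 0.0910% of CEACAM19 and 0.0% of CEACAM4, CEACAM7, CEACAM16 and CEACAM21 were found again elsewhere. The highest share was 4.84%, for CEACAM3. At 50 bases the shares were highest for CEACAM3 (10.1%), CEACAM8 (9.93%) and CEACAM5 (9.08%), followed by CEACAM1 (5.06%) and CEACAM6 (4.21%). Windows across splice junctions were not counted, and the read length was not given in the sources used here. A readthrough gene over CEACAM5 and CEACAM6 (ENSG00000267881), which shares 139 exon bases with the first and 138 with the second, had 0 counts in all libraries.

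The longest coding run that CEACAM1 shares with another member without a mismatch is 75 bases long, with CEACAM8. It is shown because a read wholly within it maps to both genes and so would not be counted as uniquely mapped; it lies at chr19:43026152-43026226 in CEACAM1 and chr19:43093685-43093759 in CEACAM8 (GRCh37, both on the minus strand).
CEACAM1 and CEACAM8: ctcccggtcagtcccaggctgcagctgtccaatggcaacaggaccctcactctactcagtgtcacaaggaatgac

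Overlapping genes are a second limit, as the strand setting of the counting was not given. The antisense RNA LIPE-AS1 covers 185 bases (3.35%) of the CEACAM1 exons and had 12 to 45 counts per library, highest in GFP replicate 2. PVR, a nectin-like adhesion receptor on the same strand as CEACAM19, shares 121 bases (2.34%) of the CEACAM19 exons and had 1198 to 1648 counts per library, with a log2 fold change of -0.12. CEACAM16-AS1 runs opposite to CEACAM19 without touching its exons and had 37, 36 and 5 counts in GFP and 8, 8 and 15 in POU5F1B cells. The part of these overlaps in the CEACAM1 and CEACAM19 counts was not tested.

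The enzymes that build and attach the GPI anchor, which CEACAM5, CEACAM6, CEACAM7 and CEACAM8 need to reach the surface, were present. Of 29 listed genes, 27 passed the filter and 0 passed the threshold with limma voom. Their median log2 fold change was -0.035, beside -0.023 over all tested genes, and 1 had an unadjusted p under 0.05, the mannosyltransferase gene PIGM, at 20.7 ± 1.29 CPM with GFP against 16.1 ± 0.370 CPM with POU5F1B (SD, n = 3; limma voom adjusted p = 0.415). Of all tested genes, 5.82% had an unadjusted p under 0.05 with POU5F1B lower.

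Of 17 partners through which CEACAM proteins signal or attach, 14 were tested and 0 passed the threshold; their median log2 fold change was 0.011. An unadjusted limma voom p under 0.05 was found for ITGB1, LYN and CTNNB1, 2 of them higher and 1 lower with POU5F1B. Over all tested genes the shares were 6.07% higher and 5.82% lower. ITGB1, the integrin beta 1 subunit, had 265, 262 and 323 CPM with GFP against 195, 209 and 191 CPM with POU5F1B in replicates 1, 2 and 3, a log2 fold change of -0.51 ± 0.12 (SE; adjusted p = 0.235 in limma voom). LYN, a SRC family kinase, had 22.1, 24.8 and 20.3 CPM with GFP against 38.8, 40.5 and 29.1 CPM with POU5F1B, a log2 fold change of 0.67 ± 0.19 (SE; adjusted p = 0.280 in limma voom). CTNNB1, which encodes beta-catenin, had 1016 ± 82.7 CPM with GFP and 1289 ± 59.9 CPM with POU5F1B (SD, n = 3; limma voom adjusted p = 0.285). The groups of these 3 genes did not overlap, as in 9.24% of tested genes with POU5F1B lower and 10.2% with POU5F1B higher. These genes were named for their small p, so the lack of overlap is no separate result.

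The 10 transcription factors listed for CEACAM promoters (USF1, USF2, SP1, SP3, IRF1, SOX9, CDX2, HIF1A, SMAD3 and SMAD4) were all tested, and 0 passed the threshold. Their median log2 fold change was -0.053. HIF1A, the oxygen-regulated factor, was the only one with an unadjusted p under 0.05. It had 93.0, 92.5 and 133 CPM with GFP and 73.7, 83.8 and 50.1 CPM with POU5F1B in replicates 1, 2 and 3, without overlap, and the limma voom adjusted p was 0.366. Of all tested genes, 5.82% had an unadjusted p under 0.05 and 9.24% had groups without overlap in this direction. HIF1A was named for its small p, so the lack of overlap is no separate result.

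The 10 CEACAM genes span 3.16 megabases of chromosome 19, from 42055886 to 45213990 (GRCh37), and share this stretch with 81 other protein-coding genes, of which 77 were in the count tables and 56 were tested, 9 of them pregnancy-specific glycoprotein genes. Of these neighbours 49 had a log2 fold change below 0, that is 87.5%, beside 53.1% of all tested genes. Their median was -0.30, where CEACAM1 and CEACAM19 had positive values. The neighbours with the smallest p were ZNF428, the repressor gene ERF and PAFAH1B3, with log2 fold changes of -0.87, -0.60 and -0.52 and limma voom adjusted p of at least 0.256, and 0 neighbours passed the threshold. An unadjusted limma voom p under 0.05 was found for 7 of the 56 with POU5F1B lower and for 0 with POU5F1B higher. Over all tested genes these shares were 5.82% and 6.07%. By replicate number, 44, 48 and 32 of the 56 neighbours were lower with POU5F1B for numbers 1, 2 and 3, so the pattern was weakest in number 3; over all tested genes the shares were 48.5%, 49.2% and 49.5%.

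**Figure D4:**
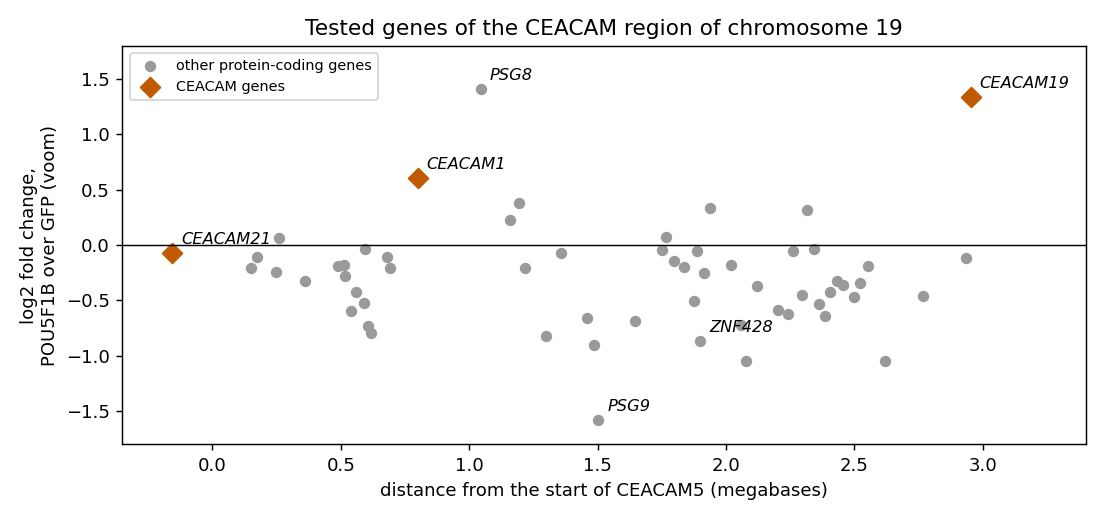
Voom log2 fold change of POU5F1B over GFP (vertical axis) against the distance of each gene's start from that of CEACAM5 in megabases (horizontal axis), for the tested CEACAM genes (orange) and the 56 tested neighbours (grey). Most neighbours, 49 of 56, lay below 0, while CEACAM1 and CEACAM19 lay above it.

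The pattern of CEACAM1 over the 6 libraries was compared with that of each other tested gene of at least 5 CPM on average, as the root mean square distance of centred and scaled log2 CPM. The nearest 5 genes were UBL7-DT (0.0771), CSF1 (0.139), ENTR1 (0.176), TRAPPC12 (0.236) and DDX28 (0.266). Of these, CSF1, a macrophage growth factor, had the largest difference, with a voom log2 fold change of 0.90 beside 0.60 for CEACAM1 and 4.89, 4.80 and 5.05 CPM with GFP and 6.06, 5.84 and 21.7 CPM with POU5F1B in replicates 1, 2 and 3. In the other 4 the voom log2 fold change was at most 0.24. With 6 libraries, of which 1 carries most of the CEACAM1 pattern, such a likeness rests on that library.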

How the data were processed

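Polyadenylated RNA of 6 SW480 samples was sequenced after a stranded library preparation. The authors mapped reads to hg19 with hisat2 (HISAT2 in the submitters' notes) and counted uniquely mapped reads over genes and transposable elements with featureCounts; they deposited one table of raw counts per library, with no normalization. The annotation release and strand setting were not given in the sources used here. Groups and replicate numbers came from the sample titles.

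From these counts, filterByExpr in edgeR 4.0.16 kept 14286 genes, whose library sizes were scaled by TMM. The main test was voom of limma 3.58.1 in R 4.3.3, as in the study's methods, with p-values adjusted by Benjamini-Hochberg across the tested genes; a gene passed at an adjusted p under 0.05 and a fold change above 2. The edgeR quasi-likelihood test, DESeq2 1.42.0 and the settings of the closing section were alternatives. Log2 CPM used a prior count of 2. The scripts were tested on simulated counts. There, a set number of changed genes had to be called only with the spread of replicates 1 and 2, not with that of all replicates.

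The named genes are the 10 members; up to 3 genes of each other list with the smallest unadjusted p under 0.05, but the 3 with the smallest p among chromosome 19 neighbours; POU5F1B; and the 5 genes nearest to CEACAM1 in pattern. Others were chosen after their values were seen. Members and lists were chosen with earlier results of these data known. Of 108 list entries, 106 were found in the tables (PIGW and CEACAM20 were not matched). Coordinates are 1-based on GRCh37 (hg19); promoters are RefSeq windows on GRCh38.p14, aligned globally with a match score of 2, a mismatch score of -1 and gap scores of -4 and -0.5.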

Additional observations from a re-analysis of the deposited data

How the results depend on the processing

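The 3 tested members kept their side of the threshold, except CEACAM19, which passed with sample quality weights (log2 fold change 1.76), on replicates 1 and 2 alone (1.76) and when GFP replicate 3 was left out (1.92). So 1 member passed with quality weights, 1 with replicates 1 and 2 only, and 0 to 1 in the fits that left out one library, where the 0 of the main test was otherwise kept. CEACAM1 stayed positive (0.19 to 0.81) and CEACAM19 stayed positive (0.95 to 1.92; not tested with at least 10 counts in every library). CEACAM21 changed sign without GFP replicate 1 (0.0093), GFP replicate 2 (0.033) or POU5F1B replicate 1 (0.053). Its values lay between -0.24 and 0.053 when single libraries were left out. Over all genes, 232 passed with DESeq2, 1077 with quality weights, 4 with at least 1 count in total, 1194 with replicates 1 and 2 only, and 0 to 595 without one library, highest without GFP replicate 3; without POU5F1B replicate 3 there were 5. GPI anchor genes past the threshold numbered 1 with quality weights and 1 with replicates 1 and 2 only (PGAP3 each time, named after its values were seen). Neighbours past it numbered 9 of 56 with quality weights, 10 of 56 with replicates 1 and 2 only (9 of them lower) and 0 to 8 of 56 without one library. Over all 14286 tested genes the numbers in the same fits were 1077, 1194 and 0 to 595. The share of neighbours below 0 was 76.8 to 92.9% over all alternatives, which were added for this share after the data had been seen. Over all tested genes the share below 0 was 46.7 to 56.4% in the same fits. The cause of these changes was not tested. For CEACAM1, CEACAM19 and CEACAM21, CPM on total counts moved each group mean by less than its SD, and CPM on total counts or a prior count of 0.5 moved each difference by replicate number by less than the SD of the 3 differences; the widest move with the prior count was from 1.72 to 2.02, for CEACAM19 and number 1.

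A replicate block, which fits the replicate number as a term, let 1 gene pass (POU5F1B), and the log2 fold changes were 0.65 for CEACAM1, 1.21 for CEACAM19 and -0.069 for CEACAM21, with 0 members past the threshold. The deviations of libraries with the same number correlated across genes with 0.242, 0.0883 and 0.165 for numbers 1, 2 and 3, and GFP replicate 2 correlated best with POU5F1B replicate 1 (0.25), so the numbers were not taken to pair the libraries.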

Other observations

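The pregnancy-specific glycoproteins, placental relatives of the CEACAM proteins encoded within the same stretch of chromosome 19, had a higher summed level than the CEACAM genes in every library. Of 10 listed PSG genes, 9 were tested and 0 passed the threshold with limma voom or had an unadjusted p under 0.05. Their counts summed to 78.8 to 320 CPM in GFP and 69.2 to 204 CPM in POU5F1B cells, where the 10 CEACAM genes summed to 17.3 to 19.9 and 19.6 to 40.2 CPM. Single PSG genes ranged widely, from a mean of 0.127 CPM over the 6 libraries for PSG3 and 0.879 CPM for PSG7, below CEACAM21 (4.98 CPM), to 60.5 CPM for PSG1, above CEACAM1 (16.0 CPM). For the 9 tested PSG genes replicate 3 was the lowest library of its group in both groups. PSG1 had 71.0, 60.7 and 25.7 CPM in GFP and 93.0, 91.0 and 21.5 CPM in POU5F1B replicates 1, 2 and 3. PSG9 had 77.3, 112 and 17.2 CPM in GFP and 26.0, 25.6 and 8.83 CPM in POU5F1B cells, a log2 fold change of -1.58 ± 0.83 (SE; adjusted p = 0.503 in limma voom), and PSG8 had 2.11, 1.52 and 0.696 against 7.71, 6.40 and 0.916 CPM (1.41 ± 0.94; adjusted p = 0.592 in limma voom). These genes are close copies of each other, and how many of their reads were lost for not mapping uniquely was not tested. Of the 11 CEACAM pseudogenes in the annotation, 6 had 0 counts in every library and the highest count was 12, for CEACAMP7 in GFP replicate 2, while CEACAM18 had 0 counts throughout and CEACAM22P at most 4.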
